A study of Mus musculus with 8 samples.

Results

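The 10 genes described here encode the ligands (Tgfb1, Tgfb2 and Tgfb3), the receptors (Tgfbr1, Tgfbr2 and Tgfbr3) and 4 of the SMAD proteins (Smad2, Smad3, Smad4 and Smad7) of the transforming growth factor beta (TGF-beta) pathway. They were taken by name, not by their values, from a table of raw counts of 31053 Ensembl genes in brown adipose tissue (BAT), the heat-producing fat depot of rodents. All 10 were found in the table. Bulk RNA-seq had been carried out on BAT from 4 wild-type (WT) and 4 db/db mice, all 8 weeks old, to see how the transcriptome of the tissue differs in obesity with diabetes. db/db mice lack a working leptin receptor (Lepr) and become obese and diabetic. The labels give the strain of both genotypes as C57BL6/J. The study's methods name the db/db line B6.BKS(D)-Leprdb/J, from the Jackson laboratories, and give the WT mice as C57BL6/J from Charles River in one place and from Jackson in another, so the breeder of the WT mice is not settled. The study's list of resources gives the db/db mice by a Jackson stock number, which was not matched to that line name here. A difference in strain background between the genotypes was therefore not checked. All mice were males on normal diet, and tissue was harvested after a fast.

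TGF-beta ligands are secreted in a latent form, bound to a propeptide and to matrix proteins, and act once they are released from it. The active ligand is handed by the co-receptor betaglycan (Tgfbr3) to the type II receptor (Tgfbr2), which then phosphorylates the type I receptor (Tgfbr1). The type I receptor phosphorylates SMAD2 and SMAD3, which join SMAD4, enter the nucleus and bind DNA, whereas SMAD7 is induced by the pathway and blocks it. In adipose tissue the pathway is known for restraining adipocyte differentiation and for promoting fibrosis, the deposition of extracellular matrix (ECM).

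Total counts ran from 2374079 to 2615009 in the WT libraries and from 2382722 to 3240074 in the db/db libraries. Levels are given as CPM, the counts scaled to a common library size with the TMM factor of each library, and 3 counts, taken as the detection floor, correspond to 0.902 to 1.33 CPM. Lepr itself had 0 counts in all 8 libraries, so at this depth the genotype was not checked on the transcript that carries the mutation. The labels name brown adipose tissue as the tissue and stromal vascular fraction, the cells left after adipocytes are removed, as the cell type. The adipocyte genes Adipoq (1250 to 2110 CPM) and Ucp1 (1060 to 2750 CPM) were abundant in every library, so the libraries hold adipocyte RNA.

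At this depth the 3 ligands and the inhibitor Smad7 lay near the detection floor, and the receptors and the other SMADs lay above it. The ligands held 0 to 44 counts per library and Smad7 1 to 12. Tgfbr1, the weakest of the other members, held 7 to 33 counts, and Tgfbr2 and Tgfbr3 held 45 to 160. The 3 receptor genes, Smad2, Smad3 and Smad4 passed the count filter, which asks for about 10 counts in 4 libraries, and the ligands and Smad7 did not. Scaled to exon length, the WT means ran from 8.16 CPM per kb for Smad4, 6.29 for Tgfbr3, 3.63 for Tgfbr2 and 2.43 for Smad3 down to 0.176 for Tgfb3, the lowest member. In db/db the order at the top was Tgfbr3 (6.40 CPM per kb), Smad4 (5.09), Smad3 (4.06) and Tgfbr2 (3.66), and Tgfb3 (2.59) stood in the fifth place, above Smad2 (1.20). Whether the library method counts whole transcripts or their ends is not given in the sources used here, and levels of counted ends do not depend on length. Without that scaling the db/db order differed. The means were then 41.9 CPM for Tgfbr3, 30.0 for Tgfbr2, 22.5 for Smad3, 18.9 for Smad4 and 10.6 for Smad2, with Tgfb3 below Smad2 at 8.78.

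**Figure D1:**
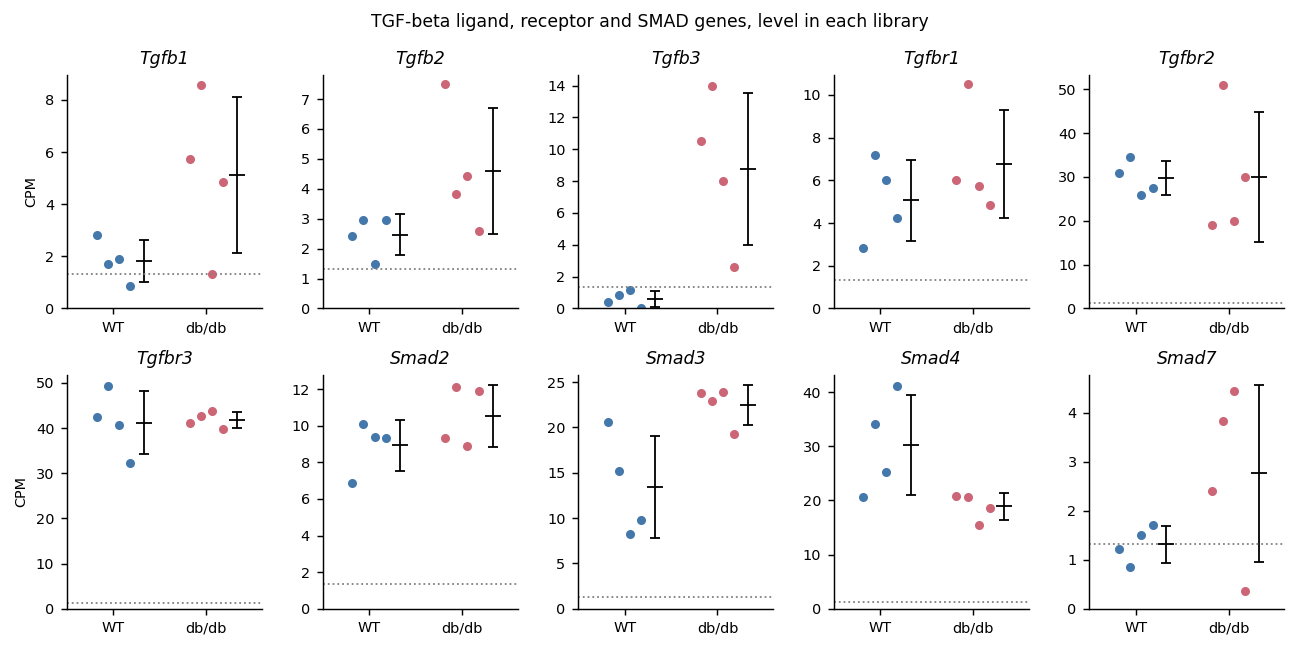
CPM of each TGF-beta ligand, receptor and SMAD gene (vertical axes, each from 0) in the WT (blue) and db/db (red) libraries, 1 point per library, with the mean and SD (n = 4) beside the points and a dotted line at the highest detection floor of any library, 1.33 CPM. In Tgfb3 the genotypes do not overlap, and the WT points lie under the dotted line.

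To ask which members differ between the genotypes, all genes past the filter were fitted with the quasi-likelihood test of edgeR. Of the 6 members tested, 2 passed an adjusted p of 0.05, Smad3 higher and Smad4 lower in db/db, in a comparison in which 27.7% of the 9264 genes tested passed (15.8% higher and 11.9% lower). The CPM of the genotypes overlapped in all 6 members tested, whereas 28.1% of the genes tested did not overlap. In a second fit, of all 16410 genes with at least 1 count, 4 of the 10 members passed (Tgfb1, Tgfb3 and Smad3 higher and Smad4 lower), where 19.3% of genes passed (11.3% higher and 8.01% lower). The values given for the ligands and for Smad7 come from that second fit. DESeq2 called 21.1% of the genes it tested (12.3% higher and 8.83% lower), among them Tgfb3 and Smad4, and limma-voom 27.4% (15.3% higher and 12.1% lower), among them Smad3.

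**Figure D2:**
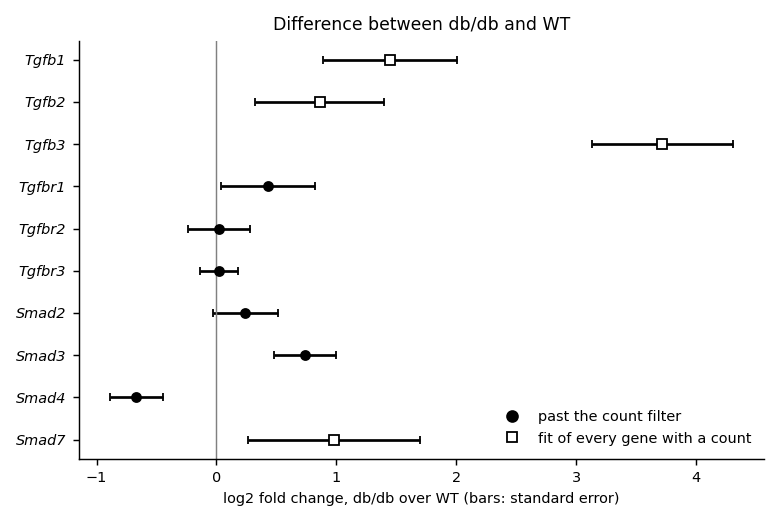
Log2 fold change between db/db and WT (horizontal axis, above 0 where db/db is higher) of the 10 genes, with bars of 1 standard error. Filled circles are from the fit of genes past the count filter and open squares from the fit of every gene with a count. Tgfb3 lies at 3.72, Smad4 at −0.67, and the 3 receptors lie between 0.02 and 0.43.

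Of the ligands, Tgfb3 rose from the floor in db/db, Tgfb1 was higher with counts that overlapped WT in 1 library, and Tgfb2 did not pass the test. The 3 genes encode closely related secreted proteins that bind the same receptors. Tgfb3 (ENSMUSG00000021253, mm10, chromosome 12, 86056745 to 86079041) had 1, 2, 3 and 0 counts in the WT libraries and 35, 44, 18 and 7 in the db/db libraries. Every WT library was at or under the floor, every db/db library was above it, and the genotypes did not overlap, which was so in 19.1% of genes with at least 1 count. Summed over libraries, 6 against 104 counts gave a ratio of 15 after scaling (exact 95% interval 6.65 to 41.7, counting error only). The level went from 0.594 ± 0.495 to 8.78 ± 4.8 CPM (SD, n = 4; log2 fold change 3.72 ± 0.59 SE, adjusted p 8.15e-09 by edgeR). The mean log2 CPM differed by 2.72 (exact two-sided permutation p = 0.0286, the smallest that 4 against 4 libraries allow). Exons of the gene share 420 bases with Gm37804 and Gm48008 on the other strand, and since counting by strand is not stated, its counts are uncertain to that extent.

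Tgfb1 (ENSMUSG00000002603, chromosome 7, 25687002 to 25705077), the ligand that macrophages and many other cells release, had 7, 4, 5 and 2 counts in WT and 19, 27, 3 and 13 in db/db. Of the db/db libraries 3 were above every WT library, and replicate 3 lay within the WT range. Its level was 1.81 ± 0.814 CPM in WT against 5.12 ± 2.99 CPM in db/db (SD, n = 4; log2 fold change 1.45 ± 0.56 SE, adjusted p 0.0484 by edgeR). The call was just past the threshold and was lost in 12 of 16 alternatives that tested the gene, among them DESeq2 (adjusted p 0.0927), the fit with the muscle score described with the markers (log2 fold change 2.10 ± 0.90 SE, adjusted p 0.209) and 6 of the 8 fits that left out 1 library. In those 6 the edgeR adjusted p was 0.0950, 0.0783 and 0.145 without WT replicates 2, 3 and 4, and 0.0817, 0.268 and 0.0663 without db/db replicates 1, 2 and 4. Tgfb2 (ENSMUSG00000039239, chromosome 1, 186622792 to 186705989) had 6, 7, 4 and 7 counts in WT and 25, 12, 10 and 7 in db/db. Only the lowest db/db library fell among the WT values, and the mean went from 2.46 ± 0.689 to 4.59 ± 2.09 CPM (SD, n = 4; log2 fold change 0.86 ± 0.54 SE, adjusted p 0.292 by edgeR). With the muscle score the log2 fold change of Tgfb2 was −0.28 (SE 0.92, edgeR adjusted p 0.953). Exons of Tgfb2 share 124 bases with Gm29491 on the other strand.

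The make-up of the ligand counts also differed. The 3 ligands together had 14, 13, 12 and 9 counts in WT and 79, 83, 31 and 27 in db/db, or 4.87 ± 0.865 and 18.5 ± 7.84 CPM (SD, n = 4), with no overlap. Tgfb3 made up 11.9% ± 10.8 of the ligand counts in WT against 45.3% ± 14.1 in db/db (SD, n = 4), and was the most counted ligand in db/db replicates 1, 2 and 3. Tgfb2 made up 52.0% ± 19.1 and 26.1% ± 8.25, and Tgfb1 36.2% ± 12.2 and 28.6% ± 16.1 (SD, n = 4). Single libraries bound these shares loosely. With 0 of 9 ligand counts, Tgfb3 in WT replicate 4 had an exact Clopper-Pearson 95% interval of 0% to 33.6%, and with 44 of 83, in db/db replicate 2, of 41.7% to 64.1%. The shares were computed after the Tgfb3 counts had been seen and are given as a description. In whole tissue, more cells of a type and more RNA per cell cannot be told apart.

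**Figure D3:**
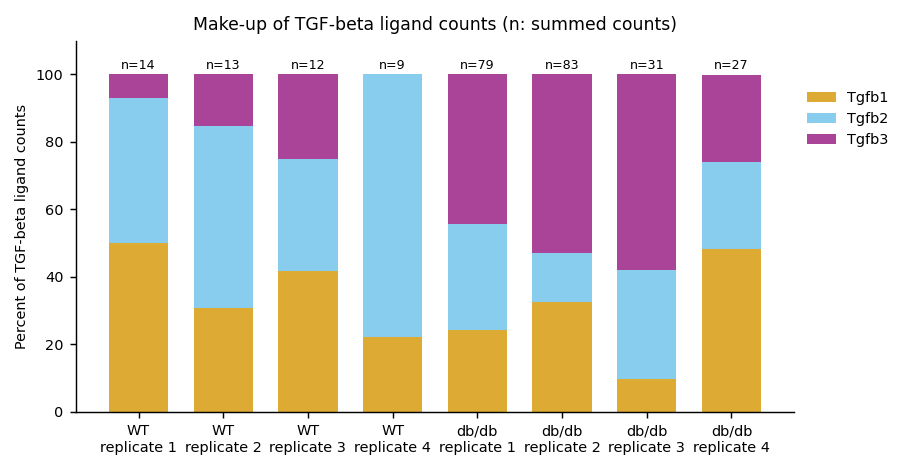
Percent of the summed Tgfb1, Tgfb2 and Tgfb3 counts (vertical axis) that each ligand took up in each library, with the summed counts (n) above the bars. Tgfb3 takes up 0% to 25.0% in the WT libraries and 25.9% to 58.1% in the db/db libraries.

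The 3 receptor genes did not differ beyond the spread between libraries, with 0 of 3 past the threshold in edgeR, DESeq2 and limma-voom, and 0 of 3 at an unadjusted p under 0.05 in each. Tgfbr1 (ENSMUSG00000007613, chromosome 4, 47353222 to 47414931), the type I receptor, had 7, 17, 16 and 10 counts in WT and 20, 33, 13 and 13 in db/db, or 5.07 ± 1.92 and 6.78 ± 2.53 CPM (SD, n = 4; log2 fold change 0.43 ± 0.39 SE, adjusted p 0.447 by edgeR). Tgfbr2 (chromosome 9, 116084293 to 116175360), the type II receptor, measured 30.8, 34.6, 25.9 and 27.6 CPM in WT and 19, 50.9, 19.9 and 30.1 CPM in db/db. Its db/db libraries lay on both sides of the WT range, with replicates 1 and 3 below it and replicate 2 above it, and the means were close (29.7 ± 3.82 and 30.0 ± 14.8 CPM, SD, n = 4; log2 fold change 0.02 ± 0.26 SE, adjusted p 0.962 by edgeR). Without db/db replicate 2 the log2 fold change of Tgfbr2 was −0.37 (SE 0.22, edgeR adjusted p 0.239). With the muscle score described with the markers it was 0.66 (SE 0.4, edgeR adjusted p 0.399).

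Tgfbr3 (chromosome 5, 107106570 to 107289629), the co-receptor betaglycan, measured 42.5, 49.4, 40.6 and 32.3 CPM in WT and 41.2, 42.6, 43.9 and 39.8 CPM in db/db. All 4 db/db values lay inside the WT range, and the difference was the most closely bounded of the 10 genes (log2 fold change 0.02 ± 0.16 SE, adjusted p 0.935 by edgeR). Tgfbr3 shares 297 exon bases with Gm43422 on the same strand, so a part of its counts is uncertain. The summed receptor level was 64.1 to 91.2 CPM in WT and 66.2 to 104.0 CPM in db/db. The ligands together averaged 3.8 times their WT level and the receptors 1.04 times, each sum taken over CPM.

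Among the SMADs, the transcripts of the receptor-activated Smad3 and of the shared partner Smad4 moved in opposite directions, and Smad2 did not pass. Smad3 (ENSMUSG00000032402, chromosome 9, 63646767 to 63757994) measured 20.6, 15.2, 8.27 and 9.76 CPM in WT and 23.8, 22.9, 23.9 and 19.3 CPM in db/db. WT replicate 1 lay above the lowest db/db library, and the other 3 WT libraries were below every db/db library. Smad3 rose from 13.5 ± 5.63 to 22.5 ± 2.14 CPM (SD, n = 4; log2 fold change 0.74 ± 0.26 SE, adjusted p 0.0420 by edgeR). With DESeq2 the adjusted p of Smad3 was 0.0768, and with the muscle score the call also ended (log2 fold change 0.93, edgeR adjusted p 0.273). Leaving out 1 library ended the call in 6 of 8 cases, with edgeR adjusted p of 0.0615, 0.139 and 0.128 without WT replicates 2, 3 and 4 and of 0.0758, 0.0754 and 0.0860 without db/db replicates 1, 2 and 3.

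SMAD3 and SMAD4 bind DNA at a short element written CAGAC, or GTCTG on the other strand. The promoter sequence before the start site was read for the members and for the genes that TGF-beta induces. Sites farther from the start were not read. RefSeq promoters of the build GRCm38.p6 were at hand for Tgfb1, Tgfb2, Tgfbr1, Tgfbr2 and Smad3. These 5 genes have 6 promoters, of which 3 held the element within 250 bases before the start site (Tgfb2, Tgfbr1 at its second start, and Tgfbr2), against 42.2% of all 32851 promoters. Printed 5′ to 3′ on the strand of the gene and with the element in capitals are those of the member that rose past the filter (Smad3, minus strand, chr9:63757995-63758244), of the member with more than 1 match (Tgfb2, minus strand, chr1:186705990-186706239), and of 2 induced genes that also rose in db/db, the collagen gene Col1a2 (plus strand, chr6:4505368-4505617) and the smooth muscle actin gene Acta2 (minus strand, chr19:34255374-34255623).
Smad3: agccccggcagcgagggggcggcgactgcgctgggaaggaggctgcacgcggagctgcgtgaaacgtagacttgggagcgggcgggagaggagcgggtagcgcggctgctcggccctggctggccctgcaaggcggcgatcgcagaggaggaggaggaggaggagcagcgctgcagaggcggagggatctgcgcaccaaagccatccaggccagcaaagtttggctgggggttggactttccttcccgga
Tgfb2: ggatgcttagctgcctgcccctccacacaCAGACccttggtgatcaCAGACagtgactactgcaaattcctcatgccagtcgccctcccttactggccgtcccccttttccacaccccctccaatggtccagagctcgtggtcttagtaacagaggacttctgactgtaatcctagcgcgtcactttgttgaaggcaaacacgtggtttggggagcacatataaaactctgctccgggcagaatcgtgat
Col1a2: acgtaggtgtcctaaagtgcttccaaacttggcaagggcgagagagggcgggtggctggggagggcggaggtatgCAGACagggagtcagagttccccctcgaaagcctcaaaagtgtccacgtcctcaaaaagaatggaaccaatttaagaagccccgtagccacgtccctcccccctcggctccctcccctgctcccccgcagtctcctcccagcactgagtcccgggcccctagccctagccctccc
Acta2: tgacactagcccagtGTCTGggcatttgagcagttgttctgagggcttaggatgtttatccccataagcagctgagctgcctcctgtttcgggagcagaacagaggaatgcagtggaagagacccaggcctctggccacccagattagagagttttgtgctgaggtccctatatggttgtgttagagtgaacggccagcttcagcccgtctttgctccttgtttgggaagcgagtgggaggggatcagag

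Counted back from the start site, the first base of the element lay at −221 and −204 in Tgfb2, at −175 in Col1a2 and at −235 in Acta2, and Smad3 had none in this window. Among the 13 induced genes that rose past the filter, 7 had a promoter entry and 5 of these held the element, against 45.8% of all 27025 genes with an entry. A match of 5 letters describes the sequence and is no evidence of binding.

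Smad4 (ENSMUSG00000024515, chromosome 18, 73639009 to 73703780) measured 20.6, 34.2, 25.2 and 41.2 CPM in WT and 20.8, 20.7, 15.5 and 18.6 CPM in db/db. WT replicate 1, the highest in Smad3, was the lowest in Smad4 and lay among the db/db values. Smad4 fell from 30.3 ± 9.18 to 18.9 ± 2.46 CPM (SD, n = 4; log2 fold change −0.67 ± 0.22 SE, adjusted p 0.0329 by edgeR), and passed with DESeq2 (adjusted p 0.0354) but not with limma-voom (adjusted p 0.0544). The call ended without WT replicate 2 (edgeR adjusted p 0.0834), WT replicate 4 (0.132), db/db replicate 3 (0.0826) or db/db replicate 4 (0.0607), and with the muscle score among filtered genes (0.0608, log2 fold change −1.13). Counts of Smad3 per count of Smad4 were 1, 0.44, 0.33 and 0.24 in WT and 1.14, 1.11, 1.54 and 1.04 in db/db. The ratios did not overlap, and as this ratio was chosen after both genes had been seen, it is a description with no test.

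Smad2 (chromosome 18, 76241580 to 76310963), the other receptor-activated SMAD of the pathway, held 17, 24, 25 and 22 counts in WT and 31, 38, 20 and 32 in db/db, at 8.94 ± 1.42 and 10.6 ± 1.69 CPM (SD, n = 4; log2 fold change 0.24 ± 0.27 SE, adjusted p 0.548 by edgeR). The inhibitor Smad7 (chromosome 18, 75367529 to 75395935) had 3, 2, 4 and 4 counts in WT and 8, 12, 10 and 1 in db/db. In 3 db/db libraries Smad7 was above every WT library and in replicate 4 it was below them, and the gene did not pass (log2 fold change 0.98 ± 0.72 SE, adjusted p 0.379 by edgeR). Without db/db replicate 4, 3 of the 4 members under the count filter did not overlap between genotypes in place of 1, and the share of all genes with at least 1 count that did not overlap was 24.0% in place of 19.1%. Over all 10 members, db/db replicate 2 had the highest CPM of the 8 libraries in Tgfb1, Tgfb3, Tgfbr1, Tgfbr2 and Smad2.

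Of the genes of proteins that hold the ligands latent, release them or bind them in the matrix, 9 rose in db/db and none fell after adjustment. Of 21 such genes 16 passed the filter, 9 rose and 0 fell in the edgeR test at an adjusted p of 0.05, against 15.8% and 11.9% of all genes tested, and their median log2 fold change was 0.72 against 0.01 over all genes tested. In the fit of every gene with a count 10 of 21 rose, where 11.3% of all genes did. At an unadjusted p under 0.05, 1 was lower (Furin), as also with DESeq2 and limma-voom, in which 0 fell after adjustment. The matrix genes Thbs1 (thrombospondin, which releases the ligands from latency), Fbn1 (fibrillin, the scaffold of the latent complexes), Bgn (biglycan, a proteoglycan) and Mmp2 (a matrix protease) rose most among the genes past the filter with a mean of at least 5 CPM. Thbs1 went from 0.809, 2.11, 1.13 and 2.12 CPM in WT to 23.5, 18.1, 15.1 and 7.07 CPM in db/db (log2 fold change 3.36 ± 0.44 SE, adjusted p 2.43e-05 by edgeR). Every db/db library was above every WT library in Thbs1, which passed the filter through its db/db libraries, since WT held 2 to 5 counts. With the muscle score described with the markers its log2 fold change was 2.14 (edgeR adjusted p 0.0382). Fbn1 rose from 8.43 ± 2.95 to 40.8 ± 24.2 CPM, Bgn from 28.6 ± 9.24 to 98.9 ± 37.0 CPM, and Mmp2 from 12.0 ± 2.69 to 29.6 ± 7.60 CPM (SD, n = 4). With that score Fbn1 had a log2 fold change of 1.17 ± 0.49 SE in place of 2.28 ± 0.35 (edgeR adjusted p 0.184) and Mmp2 one of 0.97 ± 0.39 SE in place of 1.30 ± 0.24 (edgeR adjusted p 0.170), so that neither passed.

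The carriers of the latent complex differed among themselves. Ltbp3, a latent TGF-beta binding protein, rose from 58.3 ± 10.7 to 109.3 ± 20 CPM, and Nrros, which anchors latent ligand on macrophages, from 10.8 ± 3.35 to 20.3 ± 5.72 CPM (SD, n = 4; edgeR adjusted p 5.14e-04 and 0.0167). With the muscle score both calls were lost in edgeR, and of these genes only Ltbp3 kept an unadjusted p under 0.05. Ltbp1, a binding protein of the same family, measured 4.16 ± 1.54 and 6.69 ± 3.45 CPM and did not pass (SD, n = 4; log2 fold change 0.70 ± 0.45 SE, adjusted p 0.274 by edgeR), nor did Ltbp2 (log2 fold change −0.10), Ltbp4 (0.18) or Lrrc32 (0.74), the anchor on other cells. Furin, the protease that cuts the propeptide, did not pass (log2 fold change −0.35 ± 0.14 SE, adjusted p 0.0781 by edgeR), although its genotypes did not overlap. The integrin genes Itgb1 (log2 fold change 0.56) and Itgb5 (0.57) rose, Itgav (0.12) did not pass, and Itgb6 and Itgb8, subunits of the integrins best known for activating the ligands, had 3 counts or fewer in every library. Neither Itgb1 nor Itgb5 passed in edgeR with the muscle score, where Itgb5 but not Itgb1 kept an unadjusted p under 0.05. Fmod, a proteoglycan that binds the ligands, had 0 counts in every WT library and 2.6 to 5.11 CPM in db/db, at least 2.93-fold higher against a floor of 3 counts per WT library. Thbs1, Fbn1, Ltbp3, Furin, Ltbp2 and Itgav overlap exons of genes on the other strand. Ltbp3, Nrros, Furin, the integrin genes, Lrrc32, Ltbp2, Ltbp4 and Fmod were named here after their values were seen.

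Of the genes that tune the receptors and SMADs, 3 passed the test, all higher in db/db. Of 30 genes 27 passed the filter, 3 rose and 0 fell in edgeR, where 15.8% of all genes tested rose and 11.9% fell, and the median log2 fold change was −0.05 against 0.01 over all genes tested. At an unadjusted p under 0.05, 3 were lower in edgeR (Ep300, Smurf2 and Trim33), 2 in DESeq2 and 3 in limma-voom, and 0 fell after adjustment in either of the latter. Dab2, an adaptor that links the receptors to SMADs and to endocytosis and whose exons overlap Gm18888 on the other strand, rose from 10.5 ± 4.83 to 34.9 ± 15.9 CPM (SD, n = 4; log2 fold change 1.74 ± 0.33 SE, adjusted p 6.15e-04 by edgeR), a call lost with the muscle score (1.23, adjusted p 0.193). Fkbp1a, whose protein holds the type I receptor inactive, rose from 253.0, 255.0, 227.0 and 242.0 to 447.0, 424.0, 470.0 and 460.0 CPM (log2 fold change 0.88 ± 0.12 SE, adjusted p 2.99e-05 by edgeR). The Fkbp1a values of each genotype lay close together and far from those of the other. Smurf1, a ubiquitin ligase that acts on the receptors and SMADs, rose from 11 ± 2.58 to 18.2 ± 3.38 CPM (SD, n = 4; log2 fold change 0.72 ± 0.25 SE, adjusted p 0.0360 by edgeR). The call held in 9 of 27 alternatives and was lost in the fit of every gene (adjusted p 0.0589), with DESeq2 (0.0804), with the muscle score (0.295, log2 fold change 0.85) and without WT replicate 2, 3 or 4 (0.116, 0.0755 and 0.0601) or db/db replicate 1 or 2 (0.0612 and 0.118).

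Eng, Skil and Pmepa1, named by rule, did not pass. The co-receptor Eng (endoglin), which overlaps Fpgs on the other strand, measured 12.8 ± 4.92 CPM in WT and 11.2 ± 5.02 CPM in db/db, the SMAD co-repressor Skil 12.2 ± 5.36 and 9.54 ± 2.24 CPM, and Pmepa1, whose product sequesters SMADs, 504.6 ± 142 and 596.6 ± 80.9 CPM (SD, n = 4). Their log2 fold changes were −0.18 (SE 0.33), −0.36 (SE 0.32) and 0.24 (SE 0.18), with edgeR adjusted p of 0.743, 0.437 and 0.346. Smad9 and Tgif2, the latter with 2360 exon bases shared with genes on the other strand, had 3 counts or fewer in every library.

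Many genes known to be induced by TGF-beta rose in db/db. Of 30 genes 20 passed the filter, 13 rose and 0 fell in edgeR, where 15.8% of all genes tested rose, and the median log2 fold change was 1.73 against 0.01 over all genes tested. In the fit of every gene with a count 16 of 30 rose, where 11.3% of all genes did. At an unadjusted p under 0.05 none was lower, in edgeR, DESeq2 or limma-voom. Smad7, which the pathway also induces, was counted with the members and not in this list. It did not pass in the fit of every gene (log2 fold change 0.98, adjusted p 0.379 by edgeR). Fn1 (fibronectin) rose from 6.69 ± 5.50 to 39.1 ± 11.1 CPM, Tgfbi (a matrix adhesion protein) from 4.61 ± 1.42 to 21.4 ± 12.3 CPM, and Acta2 (the actin of smooth muscle cells and myofibroblasts) from 23.2 ± 7.54 to 106.6 ± 47.0 CPM (SD, n = 4). The log2 fold change of Fn1 was 2.56 (SE 0.36, edgeR adjusted p 4.45e-05), 3.27 without WT replicate 4, its highest WT library, and 1.70 with the muscle score (edgeR adjusted p 0.0255). With the score Tgfbi did not pass (1.37, edgeR adjusted p 0.172).

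The collagen genes Col1a1 (log2 fold change 1.47), Col1a2 (1.54) and Col3a1 (2.06), the crosslinking enzymes Lox (2.05) and Loxl2 (2.15), and Eln, Sparc, Vim and Tpm1 (1.67 to 2.07) also rose. In edgeR with the muscle score, Eln and Tpm1 did not reach an unadjusted p under 0.05. Tpm1 measured 713 CPM in db/db replicate 1, the library with the most muscle RNA, and 218 to 351 CPM in the other db/db libraries. Of the 13 induced genes that rose, 5 reached the filter's count in fewer than 4 WT libraries and so passed it through db/db, among them Loxl2 (5 to 11 counts in WT), Tgfbi (8 to 16), Fn1 (7 to 35) and Eln (9 to 23). Many of these genes are also expressed by fibroblasts, whose markers rose, as given with the cell type markers. Acta2 is also expressed by smooth muscle cells. Of the 7 pericyte and smooth muscle markers tested, 3 rose (Rgs5, Cspg4 and Mcam). The other 4 did not pass, among them Myh11 (log2 fold change 0.23, edgeR adjusted p 0.737). Their part in the rise of Acta2 was not tested. Ccn2 (connective tissue growth factor) lay near the floor, with 0.424 to 2.25 CPM in WT and 3.35 to 7.98 CPM in db/db, and passed in the fit of every gene (log2 fold change 1.82 ± 0.59 SE, adjusted p 0.0140 by edgeR), but not without WT replicate 4 (adjusted p 0.0652), without db/db replicate 3 (0.0841) or with the muscle score described with the markers (0.267, log2 fold change 2.18 ± 1.0 SE). Timp1, a protease inhibitor, had 0, 0, 2 and 0 counts in WT and 35, 8, 9 and 12 in db/db, so that both WT counts came from replicate 3. The cell cycle inhibitor Cdkn1a (log2 fold change −0.19), the transcription factors Junb (0.04) and Zeb1 (0.26) and the matrix gene Postn (0.31) did not pass. The contractile genes Tagln and Cnn1, induced together with Acta2 in myofibroblasts, stayed under the filter, at 2.38 ± 1.84 and 1.23 ± 0.976 CPM for Tagln in WT and db/db (SD, n = 4). Fn1, Cdkn1a, Lox, Ccn2, Eln, Loxl2, Junb and Zeb1 overlap exons of genes on the other strand, as does Tagln over 1349 of its 1988 exon bases. Col3a1 shares 141 exon bases with Gm47302 on the same strand, and Loxl2 7 with Mir6950. In this list Fn1, Tgfbi, Acta2 and Ccn2 were named by rule and the other genes after their values were seen.

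**Figure D4:**
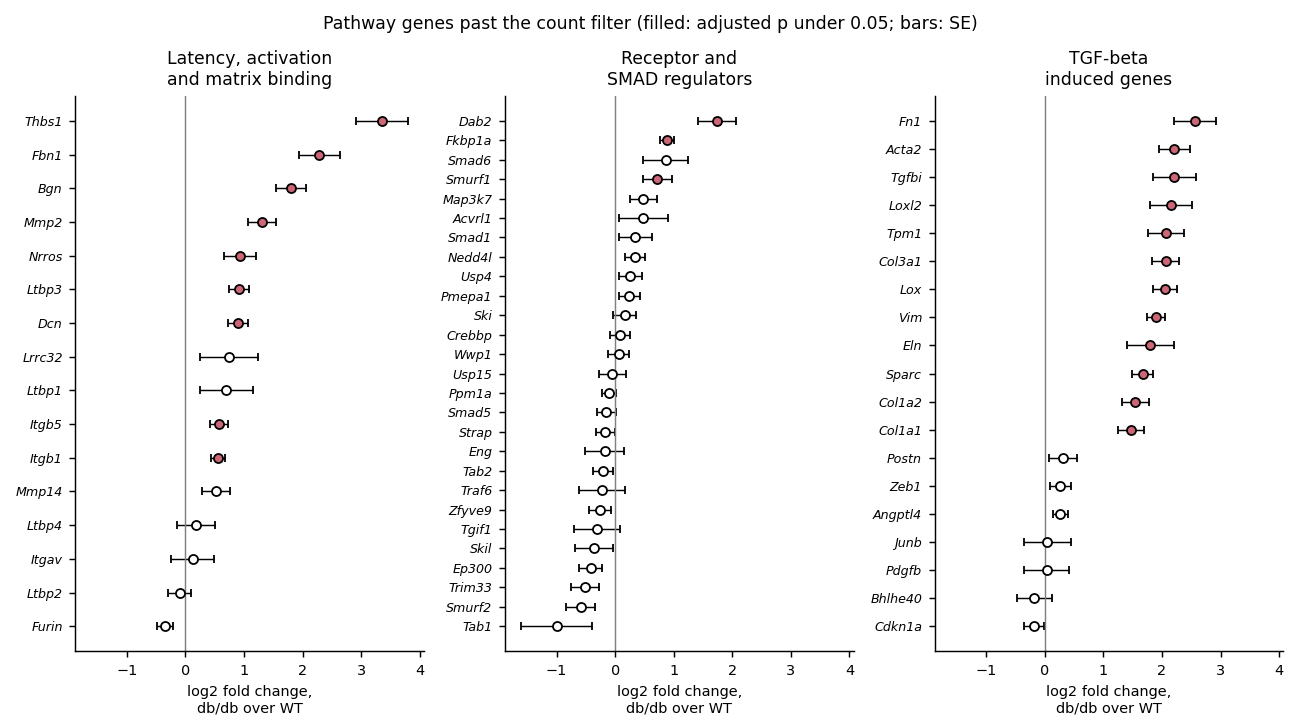
Log2 fold change between db/db and WT (horizontal axes, bars of 1 standard error) of the pathway genes past the count filter, ordered by size within each of 3 lists, with filled points where the edgeR adjusted p was under 0.05. Filled points number 9 of 16 in the latency and activation list, 3 of 27 among receptor and SMAD regulators, and 12 of 19 among the induced genes shown.

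Markers of other cell types moved with the genotype beside these genes, and their part in the differences was not tested. Macrophage markers summed to 161.0 to 214.0 CPM in WT and 750.0 to 1320 CPM in db/db, and 10 of the 11 tested rose, with Trem2 at 0 or 1 count in each WT library. The other one, the monocyte and macrophage gene Cd14, was at 8.52 ± 4.35 CPM in WT against 4.21 ± 1.57 CPM in db/db (SD, n = 4; log2 fold change −1.03 ± 0.45 SE, adjusted p 0.0997 by edgeR), and in the fit of every gene it passed as lower (adjusted p 0.0426). Fibroblast markers summed to 54.0 to 84.2 and 188.0 to 362.0 CPM, and all 5 tested rose. Skeletal muscle markers summed to 436.0 to 1560 CPM in WT and to 11400, 3160, 5110 and 2300 CPM in db/db replicates 1 to 4, and all 12 rose. Macrophages, fibroblasts and muscle did not overlap between the genotypes in these sums.

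Endothelial markers summed to 325.0 to 386.0 CPM in WT and 250 to 284.0 CPM in db/db (3 of 8 fell), and adipocyte markers to 11000 to 13100 and 7820 to 9950 CPM (3 of 7 tested fell and 1 rose). The adipocyte genes that fell were Ucp1, Cidea and Cox8b, and the one that rose was Plin1. Adipoq, Lipe and Cidec did not pass. The mean of Cidea went from 4356 to 1839 CPM and that of Plin1 from 520.6 to 898.3 CPM. Pericyte and smooth muscle markers summed to 215.0 to 238.0 and 291.0 to 391.0 CPM (3 of 7 rose). The platelet sum went from between 15.8 and 31.0 to between 70.3 and 111.0 CPM through Pf4, which macrophages also express, with the defining genes Gp9 (0 to 4 counts) and Ppbp (1 to 10) low in both genotypes. Itga2b, a further defining platelet gene, was lower in db/db without overlap (33 counts in WT and 16 in db/db in all, 3.38 ± 0.987 and 1.45 ± 0.449 CPM, SD, n = 4) and did not pass in the fit of every gene (edgeR adjusted p 0.198). The lymphocyte sum was at most 8.72 CPM, with Cd79a at 0 counts in every library.

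With a skeletal muscle score as a covariate, 0 of the 6 members tested passed in edgeR (1 at an unadjusted p under 0.05, Smad4). In that fit 2 activation, 1 regulator and 7 induced genes passed, of 605 genes in all (6.53%). The muscle sums of the genotypes do not overlap, so that score and genotype largely coincide. Smad3 had a log2 fold change of 0.93 ± 0.45 SE (edgeR adjusted p 0.273) and Smad4 of −1.13 (0.0608), both farther from 0 than without the score. In the fit of every gene with the score, 2 of the 10 members passed, Tgfb3 (3.21, edgeR adjusted p 0.0137) and Smad4 (−1.16, 0.0338), where 4.80% of genes passed. Without db/db replicate 1, the library with the most muscle RNA, 1 of the 6 members tested (Smad4), 8 activation, 2 regulator and 13 induced genes passed, where 24.0% of all genes tested passed.

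**Figure D5:**
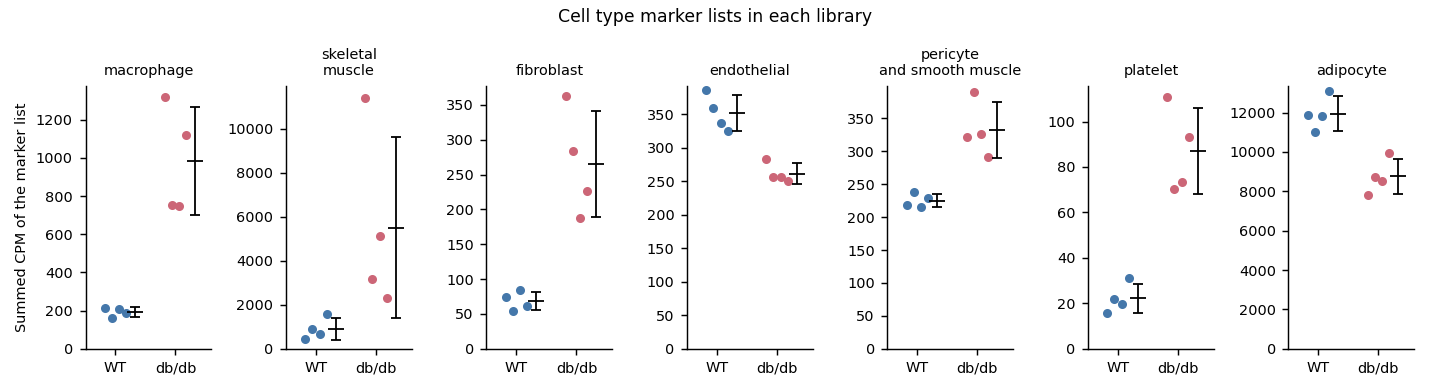
Summed CPM of the marker genes of 7 cell types (vertical axes, each from 0) in the WT (blue) and db/db (red) libraries, 1 point per library, with the mean and SD (n = 4) beside the points. Macrophage, fibroblast, muscle, pericyte and platelet sums are higher in db/db, endothelial and adipocyte sums are lower, and no sum overlaps between the genotypes.

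Finally, the genes whose level followed a member most closely across the 8 libraries were listed for the most counted member of each role. For Tgfb3 these were Tpi1, a glycolytic enzyme (r = 0.98), B3glct (0.98) and Marcks (0.97), with r of 0.91, 0.88 and 0.86 on deviations from the genotype means. For Tgfbr3 they were the splicing factor gene Srsf5 (0.93), the autophagy gene Atg14 (0.92) and Aox1 (0.90), whose genotypes, like those of Tgfbr3, differed by at most 0.07 on the log2 scale. For Smad4 they were Stard10 (0.96), Ung (0.95) and Gimap6 (0.95). The points are 8 libraries of 2 genotypes, shared by all 8689 genes compared, so that the leading r values are the highest of many and describe these libraries.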

How the data were processed

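Per the labels, the authors had libraries made by a commercial digital mRNA-seq service from total RNA and read single-end. The study's methods name bbduk, STAR (mm10), HTSeq-count and DESeq2, whereas its list of software and the submitters' processing notes also name Trimmomatic and HISAT2 (GRCm38, mm10), so the aligner is not settled. Collapsing of molecular identifiers and strand settings are not given in the sources used here. The authors deposited raw counts per Ensembl gene, the values tested here. They also deposited log2 values, which equal log2 of the count divided by the DESeq2 size factor plus 1 and served as a check. The sample sheet was not used here.

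Of 31053 identifiers, 31011 matched GENCODE M21, and the others held at most 0.00213% of any library's counts. Samples were grouped by their titles. Genes were filtered with filterByExpr (minimum count 10, minimum total 15), scaled by TMM and tested in R 4.3.3 by the quasi-likelihood approach of edgeR 4.0.16, genotype being the only term. p-values were adjusted by Benjamini-Hochberg over all genes fitted. Single values were compared by exact two-sided permutation on log2 CPM with a prior count of 2. Intervals cover counting error only, PCR copies may be included, and between same-genotype libraries the chi-square per degree of freedom was 3.99 to 14. The study counts each library as 1 mouse, and the labels do not name the animals.

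The members, lists and alternatives were chosen with earlier results of these data known. Named by rule were the 10 members, the 4 largest changes of each pathway list with a mean of at least 5 CPM among those called, and Ltbp1, Eng, Skil, Pmepa1 and Ccn2, and for the most counted ligand, receptor and SMAD the 3 genes of highest correlation. Beside these, 1 induced gene that the rule names enters the counts and is not reported here by name. The fits were tested on simulated data. Alternatives were DESeq2 1.42.0, limma-voom (limma 3.58.1), other scalings and filters, prior counts of 0.5 and 5, the muscle score as a covariate, a replicate block and the omission of each library in turn.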

Additional observations from a re-analysis of the deposited data

Results flagged for a closer look

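Of 58 sets of 4 libraries examined with Dixon's test, among the named genes, the depth, the summed ligand level and the Tgfb3 share, 2 held a library that stood apart, where chance alone gives about 1 in 20, or 2.9. In db/db replicate 1 Mmp2 measured 40.9 CPM, and the other db/db libraries 24.8 to 26.4 CPM. Fn1 measured 14.9 CPM in WT replicate 4, against 2.95 to 4.88 CPM in the other WT libraries. None of the 10 ligand, receptor and SMAD genes held such a library.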

How the results depend on the processing

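The count of members called, 2 of 6, was 1 with limma-voom, 4 of 10 with every gene with at least 1 count, 0 with the skeletal muscle score, and 1 to 4 when 1 library was left out, in the fit of filtered genes and in that of every gene. With DESeq2 it was 2, Tgfb3 and Smad4. The muscle score lowered the activation genes called from 9 to 2, the regulators from 3 to 1, the induced genes from 13 to 7 and all genes called from 2568 to 605. With every gene fitted and the score it gave 3, 1, 10 and 787, and 2 of 10 members. Asking for 10 counts in every library left 14 induced genes, of which 8 passed. In that fit 2018 of all 7333 genes tested passed, 1122 of them higher in db/db. The members under the filter that did not overlap numbered 1 to 3 when 1 library was left out, with 22.1% to 24.0% of all genes with a count not overlapping.

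For the 16 named genes called, 13 of 116 other fits and 18 of 117 that left out a library lost the call, and none reversed it. Among alternatives chosen after seeing the data, 21 of 128 that left out a library and 10 of 32 others lost it. With the muscle score Fbn1 (log2 fold change 1.17, adjusted p 0.184), Mmp2 (0.97, 0.170), Dab2 (1.23, 0.193), Tgfbi (1.37, 0.172), Smurf1 (0.85, 0.295) and, in the fit of every gene, Ccn2 (2.18, 0.267) did not pass, while the standard errors were larger, and the log2 fold change of Tgfb2 turned from 0.86 to −0.28. Tgfb3 passed in all 16 alternatives that tested it (adjusted p 4.55e-10 to 0.0137), Smad3 in 13 of 27 (0.00422 to 0.290) and Smad4 in 20 of 27 (0.00212 to 0.136). The causes were not tested. Same-numbered libraries did not deviate together (r −0.0781 to 0.0490), so the numbers do not pair them. With the replicate block 2 members, 9 activation, 2 regulator and 13 induced genes and 2557 genes in all passed, Smurf1 being the regulator lost (adjusted p 0.0572), and Tgfb1 in the fit of every gene had an adjusted p of 0.0964. The depth limits the ligands and Smad7 most, since 3 counts are 0.902 to 1.33 CPM.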
